A study of Mus musculus with 18 samples.

Results

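The 9 genes described here encode the creatine kinases and their partners in cardiac energy transfer, myoglobin, and the aspartate aminotransferases, and several of their proteins are released into blood by injured heart muscle. They were taken by name (Ckm, Ckmt2, Ckb, Mb, Slc6a8, Slc25a4, Ak1, Got1 and Got2) from a table of 30583 genes, and all 9 passed the low-count filter that kept 16311 genes for testing. The data are poly(A)-selected RNA-seq libraries from 18 male C57BL/6JR mice aged 12 weeks, 3 mice in each of 6 groups, with 1 library per mouse. In 5 groups the left anterior descending coronary artery was tied to cause a myocardial infarction, and hearts were taken after 10 min or after 1, 6, 24 or 72 h. The sham group (0 h in the labels) had the suture passed and not tied, so every mouse shared the anaesthesia and the operation. No genetic change or drug under test is named for any group, and the sham group has no later time points, so time since surgery is not controlled for. RNA came from the infarcted part of the left ventricle. The labels also give cardiomyocytes as the cell type, but no step that separates cells is described, and markers of fibroblasts, endothelial cells and macrophages were present in all 18 libraries, so the libraries are treated as whole tissue.

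Heart muscle keeps its ATP supply steady by passing high-energy phosphate to creatine. The mitochondrial creatine kinase (Ckmt2) makes phosphocreatine from ATP that leaves the matrix through the ADP/ATP carrier (Slc25a4), and the cytosolic muscle enzyme (Ckm) turns it back into ATP beside the myofibrils. Creatine itself is imported by Slc6a8, adenylate kinase (Ak1) runs a parallel phosphate exchange, and myoglobin (Mb) stores oxygen. Got1 in the cytosol and Got2 in the mitochondrion carry electrons inward as part of the malate-aspartate shuttle. The brain-type subunit Ckb pairs with Ckm in the CK-MB dimer, which has long been used with myoglobin and aspartate aminotransferase as a blood test for infarction. Blood proteins were not measured here, and the values below are mRNA in tissue.

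Libraries held 18199172 to 25062351 counts. Mitochondrially encoded genes took 23.8 to 26.1% of counts in sham and 8.41 to 10.5% at 72 h, and the 9 genes together took 2.21 to 2.26% in sham and 0.762 to 1.06% at 72 h. Levels are given as CPM (each count relative to the library size) after TMM scaling, which sets the bulk of genes level between libraries. Scaling by library totals instead put the median change over all genes at -0.12 (6 h), 0.20 (24 h) and 0.61 (72 h) on the log2 scale, so each change below is relative to the bulk of genes, and a gene whose direction turns under library totals is named as such. Differences on the log2 scale are given ± their SE, and genes were called at an edgeR adjusted p under 0.05 over all genes tested. In tissue of mixed cells, fewer cells of a type and less RNA per cell cannot be told apart.

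At 10 min and at 1 h after ligation, 0 of the 9 genes differed from sham by the edgeR test, where 0.0736% and 0.294% of all genes tested were called (0.0307% higher and 0.0429% lower at 10 min, 0.288% higher and 0.00613% lower at 1 h). Unadjusted p-values for the 9 genes were 0.352 or higher at 10 min and 0.211 or higher at 1 h, and DESeq2 and both limma fits also called 0 of 9 at both times. At 6 h 1 gene, Ckb, was called lower, against 28.4% of all genes called, 12.2% lower and 16.3% higher. At 24 h 6 of 9 were lower and 0 higher, with 43.8% of all genes called, 20.2% lower and 23.7% higher. At 72 h 8 of 9 were lower and Ckb was higher, with 66.4% of all genes called, 32.2% lower and 34.2% higher. Groups did not overlap sham for 44.3% of all genes at 6 h, 53.7% at 24 h and 75.8% at 72 h. Library totals left 7 of these 8 genes lower, and Slc6a8 turned upward. Under library totals the split over all genes moved: 1914 of 4716 called genes were higher at 6 h, 5558 of 7363 at 24 h and 9472 of 11854 at 72 h, where TMM gave 2653 of 4639, 3860 of 7149 and 5572 of 10831. Between consecutive times, 0 of 9 were called from 10 min to 1 h (0.307% of all genes, 0.251% higher and 0.0552% lower), 0 of 9 from 1 h to 6 h (24.5%, 14.5% higher and 10% lower), 7 of 9 from 6 h to 24 h, all lower (27.8% of all genes called, 13.7% lower and 14.2% higher), and 9 of 9 from 24 h to 72 h, where 8 fell and Ckb rose (50.5% of all genes called, 26.1% lower and 24.4% higher). Library totals called 6880 genes from 6 h to 24 h, 6052 of them higher, and 8936 from 24 h to 72 h, 7285 higher. Of the 9 genes, they called 5 lower and 1 higher from 6 h to 24 h. From 24 h to 72 h they called 6 lower and 1 higher. The count of 7 from 6 h to 24 h was 1 when only the 6 libraries of those times were fitted. The median log2 change of the 9 genes against sham was -0.57 at 24 h and -1.90 at 72 h, beside 0.01 and 0.03 over all genes. An F test over all 6 groups called 9 of 9, where 78.4% of all genes were called. Under library totals that test called 8 of 9, and 13642 of the 16311 genes.

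**Figure D1:**
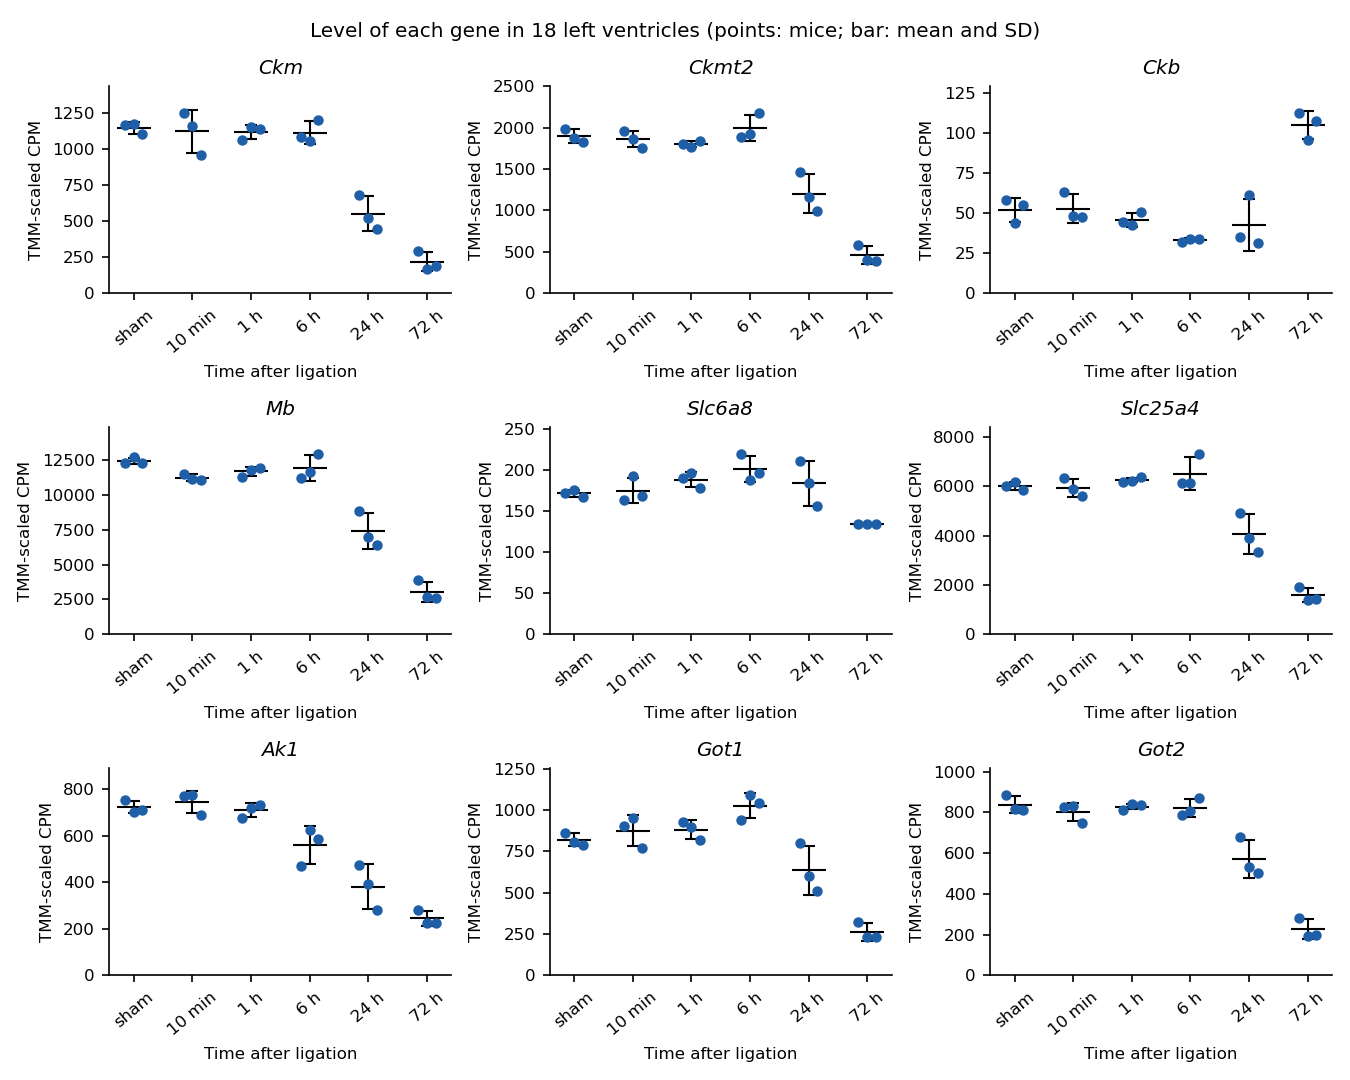
Level of each of the 9 genes (TMM-scaled CPM, linear axes from 0) in the 3 mice of each group; points are mice, bars the mean and SD. Means of Ckm, Ckmt2, Mb, Slc25a4, Got1 and Got2 step down at 24 h and again at 72 h, although Got1 overlaps sham at 24 h. Ak1 declines from 6 h on, and its 24 h mice overlap those at 6 h and at 72 h. Mean Ckb is lowest at 6 h and highest at 72 h, and Slc6a8 stays between 133.6 and 219 CPM.

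The creatine kinase genes moved in different directions. The 3 genes lie on separate chromosomes, and the sequence before each start is shown here because Ckm and Ckb, whose proteins pair in CK-MB, moved in opposite ways at 72 h while Ckmt2 moved with Ckm. Sequences are from RefSeq on GRCm38.p6 and end at the base before the start, except that of Ckm. The Ckm sequence is cut before the first base of its window that an annotated exon of the gene covers. The annotated gene begins further upstream, at 19404776, so the printed Ckm sequence lies inside it. Capitals mark matches to an E-box (CANNTG), a TATA box (TATAAA) or the MEF2 motif. Both strands were searched in the 250 bases before each start. The window of Ckm is chr7:19410844-19411024 on the plus strand, that of Ckmt2 chr13:91876886-91877135 on the minus strand and that of Ckb chr12:111672339-111672588 on the minus strand.
Ckm: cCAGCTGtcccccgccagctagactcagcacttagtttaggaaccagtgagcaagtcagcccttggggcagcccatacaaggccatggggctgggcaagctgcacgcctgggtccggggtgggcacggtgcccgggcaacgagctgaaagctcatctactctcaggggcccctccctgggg
Ckmt2: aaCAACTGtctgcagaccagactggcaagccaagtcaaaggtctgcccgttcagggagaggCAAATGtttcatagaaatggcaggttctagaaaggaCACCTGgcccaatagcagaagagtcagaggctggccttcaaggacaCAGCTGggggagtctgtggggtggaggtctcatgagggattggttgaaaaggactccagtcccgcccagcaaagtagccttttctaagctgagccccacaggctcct
Ckb: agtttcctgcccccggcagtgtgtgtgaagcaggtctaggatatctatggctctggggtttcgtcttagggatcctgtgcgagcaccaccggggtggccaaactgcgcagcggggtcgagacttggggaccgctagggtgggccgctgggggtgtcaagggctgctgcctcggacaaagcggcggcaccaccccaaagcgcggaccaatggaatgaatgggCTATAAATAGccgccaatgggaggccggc
Ckm had 1 E-box in the 250 bases and Ckmt2 had 4, while 66.2% of 32851 RefSeq promoter windows of this length held at least 1. Ckb had 0 E-boxes and 1 run, CTATAAATAG, that begins 29 bases before the start. That run matches the MEF2 motif, found in 2.92% of windows, and contains the TATA box, found in 12.4%. The ERR motif (AAGGTCA, 4.08% of windows) and the CArG box (1.47%) had 0 matches in these 3 windows. A match is a run of letters, and no binding was measured here.

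Ckm (ENSMUSG00000030399, chromosome 7, 19404776 to 19422841, plus strand), the cytosolic muscle enzyme, fell the most of the 9 genes. Its 3 sham libraries measured 1164, 1172 and 1101 CPM, and the 6 h libraries 1083, 1055 and 1201 CPM. At 24 h the values were 683, 521 and 446 CPM, and at 72 h 291, 167 and 191 CPM. The libraries of sham, 10 min, 1 h and 6 h overlapped, every 24 h library lay below all of them, and every 72 h library below every 24 h library. The log2 fold change against sham was -1.06 at 24 h (SE 0.18, edgeR adjusted p = 1.54e-04) and -2.40 at 72 h (SE 0.18, edgeR adjusted p = 3.08e-09), a 5.29-fold lower level. The step from 24 h to 72 h was -1.35 (SE 0.18, edgeR adjusted p = 5.65e-06). Exons of Ckm share 451 bases with a gene on the other strand, A930016O22Rik, which had at most 47 counts in any library, while Ckm had at least 5501.

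Ckmt2 (ENSMUSG00000021622, chromosome 13, 91853387 to 91876885, minus strand), the sarcomeric mitochondrial enzyme, measured 1986, 1880.1 and 1824 CPM in sham and 1888, 1927 and 2176 CPM at 6 h. It was at 1459.8, 1157 and 995 CPM at 24 h and at 585, 404 and 393 CPM at 72 h. The sham libraries overlapped those at 10 min, 1 h and 6 h, the 6 h libraries lay above those at 1 h, and the last 2 groups stood apart below all of these. The log2 fold change was -0.66 at 24 h (SE 0.15, edgeR adjusted p = 0.00184) and -2.04 at 72 h (SE 0.15, edgeR adjusted p = 2.67e-09), or 4.12-fold lower.

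Ckb (ENSMUSG00000001270, chromosome 12, 111669361 to 111672338, minus strand), the subunit that prevails in brain and in many cells outside striated muscle, was the 1 gene that ended above sham. Its sham libraries measured 58.0, 43.7 and 54.9 CPM, those at 10 min 63.2, 48.0 and 47.6 CPM, and those at 1 h 44.4, 42.7 and 51.0 CPM. At 6 h it was at 32.3, 33.6 and 34.1 CPM, below every sham library. The 6 h change was -0.65 on the log2 scale (SE 0.19, edgeR adjusted p = 0.0201). This call was lost without sham replicate 1 (edgeR adjusted p = 0.0797), without sham replicate 3 (0.0627), without 6 h replicate 1 (0.0702) and with no low-count filter (0.0613), while its log2 value stayed between -0.76 and -0.56 in the 18 fits that left out 1 library.

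The 24 h libraries of Ckb spread widely, at 35.2, 61.5 and 31.6 CPM. Replicate 2 lay above every sham library and the other two below all of them, and the group did not pass the test against sham (-0.28 ± 0.19 on the log2 scale, edgeR adjusted p = 0.244). Without replicate 2 the value was -0.64 (edgeR adjusted p = 0.00157). That library also had the highest summed fibroblast markers of its group (1342 CPM, against 946 and 891 CPM), the highest proliferation markers (13.5 CPM, against 4.49 and 3.92 CPM) and the lowest neutrophil markers (35.8 CPM, against 150.2 and 626 CPM). Smooth muscle markers were also highest there (193 CPM, against 163 and 167 CPM) and Schwann cell markers lowest (6.23 CPM, against 7.73 and 9.44 CPM). Atrial cardiomyocyte markers were highest there as well (810 CPM, against 638 and 562 CPM). Its macrophage markers (454 CPM, against 441 and 541 CPM) and endothelial markers (1047 CPM, against 874 and 1088 CPM) lay between those of the other libraries. The part of these cells in the Ckb value was not tested.

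At 72 h Ckb was at 113, 95.6 and 108 CPM, above all 15 libraries of the other groups. The log2 fold change against sham was 1.01 (SE 0.19, edgeR adjusted p = 1.79e-04), or 2.02-fold, and 1.60 under library totals. From 24 h to 72 h it rose by 1.30 (SE 0.19, edgeR adjusted p = 3.08e-05). The 6 fibroblast markers summed to 755 to 857 CPM in sham and 12237 to 15865 CPM at 72 h, the 6 macrophage markers rose from 179.6 to 203 CPM to 2985 to 3942 CPM, and the 2 proliferation markers from 1.19 to 2.53 CPM to 131 to 200.1 CPM. Smooth muscle markers went from 200.1 to 257 CPM to 304 to 432 CPM, endothelial markers from 1148 to 1267 CPM to 706 to 923 CPM, and Schwann cell markers from 9.05 to 10.3 CPM to 4.48 to 5.31 CPM. Neutrophil markers went from 2.31 to 3.37 CPM to 51.2 to 61.0 CPM. Atrial cardiomyocyte markers went from 91.2 to 207 CPM to 572 to 648 CPM. The part of these cells in the rise of Ckb was not tested. In the order of its levels, 72 h stood above 10 min, and neighbours further down (10 min, sham, 1 h, 24 h, 6 h) did not differ beyond their spread.

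**Figure D2:**
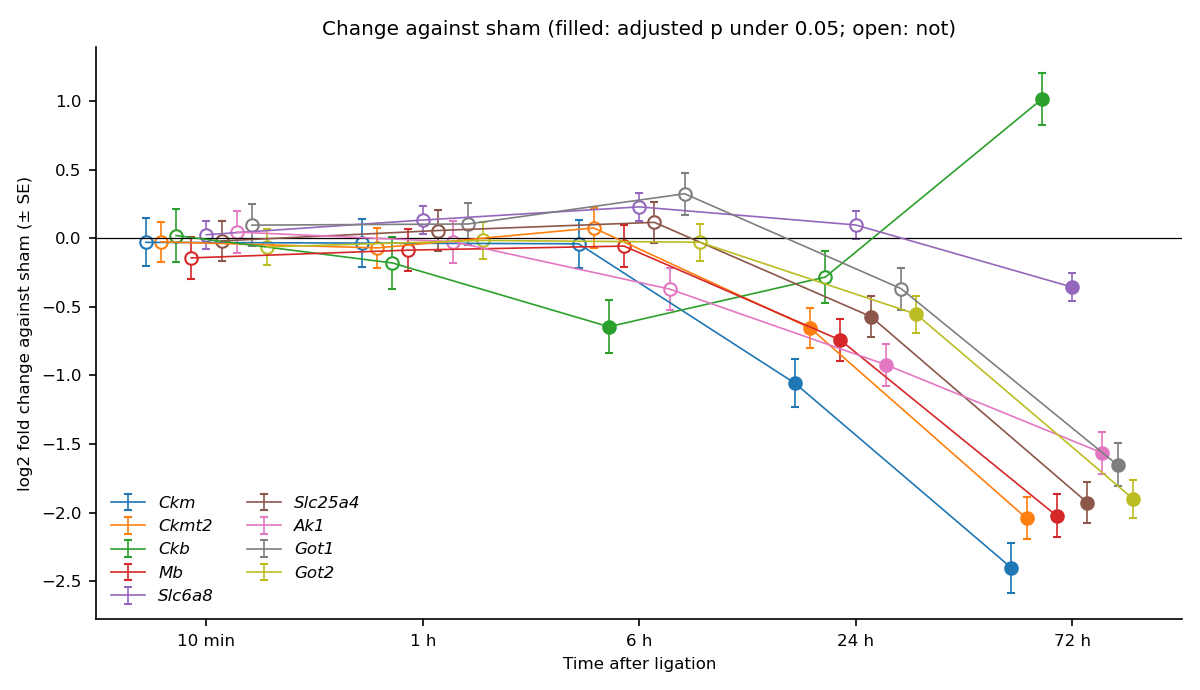
Log2 fold change of each gene against sham with its SE at the 5 times after ligation (symbols shifted sideways for clarity); filled points have an edgeR adjusted p under 0.05. All 9 points at 72 h are filled, 8 of them below 0 and Ckb above it at 1.01; Slc6a8, at -0.36 here, is above 0 under library totals (0.23).

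The make-up of creatine kinase mRNA shifted with these changes. Levels of different genes are compared per length (FPKM from the same scaled counts, using the exon lengths behind the deposited FPKM). In sham, Ckmt2 made up 75.6% ± 0.458 (SD, n = 3), Ckm 23.3% ± 0.580 and Ckb 1.07% ± 0.149 of the summed level of the 4 creatine kinase genes, with Ckmt1, the ubiquitous mitochondrial form, at 0.00228%. Ckb took 0.665% ± 0.0366 at 6 h, 1.49% ± 0.611 at 24 h and 8.85% ± 1.43 at 72 h. Ckm took 18.6% ± 0.448 at 24 h and 17.5% ± 1.49 at 72 h, and Ckmt2 79.9% ± 0.386 and 73.6% ± 1.52. The sum over the 4 genes fell from 1688 ± 65.8 FPKM in sham to 1014 ± 200.1 at 24 h and 421 ± 96.9 at 72 h. The merged exons of Ckm and Ckb include transcripts other than the main one. With the length of the transcript that GENCODE numbers first for each gene, a choice made after seeing the data, Ckb took 1.58% of the 3 tested genes in sham and 13.2% at 72 h, and Ckm 41.4% and 31.2%.

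Ratios within a library do not depend on scaling, and their change does not depend on length. The Ckb to Ckm ratio was 0.0502, 0.0375 and 0.0501 in the sham libraries, 0.0300, 0.0321 and 0.0286 at 6 h, 0.0518, 0.119 and 0.0713 at 24 h, and 0.389, 0.575 and 0.569 at 72 h. It was thus below sham at 6 h and above sham at 24 h and 72 h, with no overlap at any of the 3 times. The log2 difference was -0.59 at 6 h, 0.74 at 24 h and 3.47 at 72 h, an 11.0-fold higher ratio. Without 24 h replicate 2 the 24 h difference was 0.42. The Ckmt2 to Ckm ratio ran from 3.15 to 3.35 in sham, and its mean was 3.52 ± 0.0868 (SD, n = 3) at 6 h, 4.31 ± 0.103 at 24 h and 4.23 ± 0.434 at 72 h. These 3 groups lay above every sham library. With 3 libraries against 3, the two-sided exact permutation test cannot give p under 0.1, and each of these differences had exact p = 0.1 (0.167 after Benjamini-Hochberg adjustment over the 20 ratio tests).

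**Figure D3:**
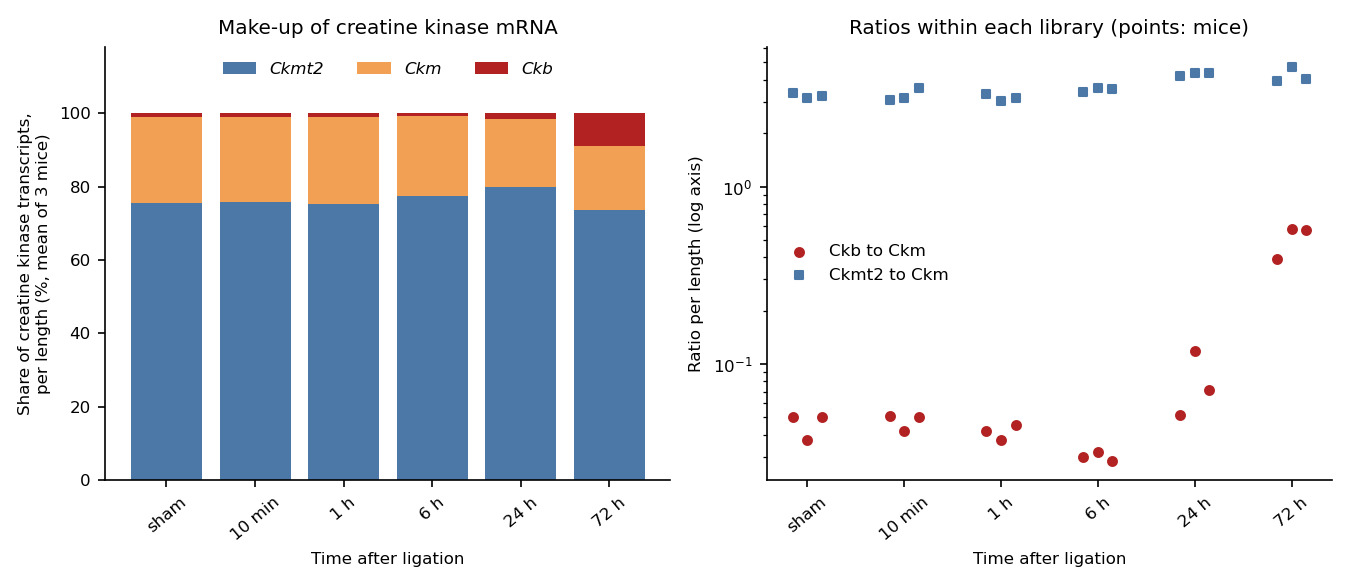
Left, mean share of Ckmt2, Ckm and Ckb in creatine kinase mRNA per length, in percent, by group (n = 3 mice; Ckmt1 is too low to see). Right, the Ckb to Ckm and Ckmt2 to Ckm ratios in each library on a log axis; the Ckb to Ckm ratio runs from 0.0286 at 6 h to 0.575 at 72 h.

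Creatine is made in other organs by Gatm and Gamt and reaches the heart through Slc6a8 (ENSMUSG00000019558, chromosome X, 73673150 to 73682502, plus strand). Slc6a8 measured 172, 176 and 167 CPM in sham, 219, 188 and 196 CPM at 6 h, 210.4, 184 and 156 CPM at 24 h, and 134.4, 133.6 and 134.4 CPM at 72 h. The 72 h libraries were nearly equal and lay below all others, and the 6 h libraries lay above all sham libraries without passing the test (0.23 ± 0.10 on the log2 scale, edgeR adjusted p = 0.101). At 72 h the log2 fold change was -0.36 (SE 0.10, edgeR adjusted p = 0.00476). This direction depended on the scaling: library totals gave 0.23 (edgeR adjusted p = 0.0508), and limma on log2(FPKM + 1), which also rests on library totals, gave 0.22 (adjusted p = 0.0425). At 24 h library totals gave 0.29 (edgeR adjusted p = 0.0287), where TMM gave 0.10 (edgeR adjusted p = 0.464).

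Of the other creatine genes, Gatm and Gamt passed the low-count filter and Ckmt1 did not. Gatm, which makes guanidinoacetate, fell from a mean of 3.10 CPM in sham to 2.12 CPM at 6 h (-0.56 on the log2 scale, edgeR adjusted p = 0.0469) and rose to 21.2 CPM at 72 h (2.76 ± 0.18, edgeR adjusted p = 5.86e-10). Gamt, which methylates guanidinoacetate to creatine, fell from 7.57 to 3.62 CPM at 6 h (-1.07 on the log2 scale, edgeR adjusted p = 9.58e-04). It was at 9.33 CPM at 72 h, which did not pass the test (0.30, edgeR adjusted p = 0.173, or 0.89 and called higher under library totals).

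Myoglobin (Mb, ENSMUSG00000018893, chromosome 15, 77015487 to 77050670, minus strand) was the most abundant of the 9 genes in every group. It alone took 1.12 to 1.177% of all counts in sham and 0.366 to 0.526% at 72 h. The sham libraries measured 12275, 12686 and 12285 CPM, those at 10 min 11529, 11134 and 11043 CPM and those at 1 h 11309, 11797 and 11945 CPM. Both early groups lay below every sham library by a small margin that did not pass the test (log2 fold change -0.14 and -0.09, edgeR adjusted p = 0.922 and 0.999), where 20% and 16.9% of all genes did not overlap sham. At 24 h Mb was at 8856, 6985 and 6405 CPM (-0.74 ± 0.15 on the log2 scale, edgeR adjusted p = 8.16e-04). At 72 h it was at 3877, 2642 and 2633 CPM (-2.03 ± 0.16, edgeR adjusted p = 3.67e-09), 4.07-fold below sham. The 72 h libraries lay below all 24 h libraries, and the 24 h libraries below all earlier ones. On the other strand, Mb shares 64 exon bases with Apol6, which had at most 53 counts, and 412 with Gm49540, which had 0.

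The ADP/ATP carrier Slc25a4 (ENSMUSG00000031633, chromosome 8, 46206797 to 46211284, minus strand), the heart and muscle isoform, followed the same course. It ranged from 5868 to 6187 CPM in sham and from 6122 to 7310.4 CPM at 6 h, then measured 4931, 3895 and 3328 CPM at 24 h and 1923, 1407 and 1420.2 CPM at 72 h. The log2 fold change was -0.57 at 24 h (SE 0.15, edgeR adjusted p = 0.00464) and -1.93 at 72 h (SE 0.15, edgeR adjusted p = 4.90e-09). Its widely expressed relative Slc25a5 was at 253 ± 20.1 CPM (SD, n = 3) in sham and 203 ± 8.93 CPM at 72 h (-0.32 on the log2 scale, edgeR adjusted p = 0.0104), a direction that turned to 0.27 under library totals. The Slc25a5 to Slc25a4 ratio per length averaged 0.0603 ± 0.00631 (sham), then 0.0894 ± 0.0138 at 24 h and 0.187 ± 0.0296 at 72 h, 3.09-fold higher than in sham. Its groups did not overlap sham at 24 h or 72 h (two-sided exact permutation p = 0.1 for each, the smallest possible, 0.167 adjusted over the 20 ratios). The pair is closely related and has processed copies in the genome, so reads that match several places make their separate counts uncertain.

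Ak1 (ENSMUSG00000026817, chromosome 2, 32621758 to 32635058, plus strand), the cytosolic adenylate kinase of muscle, lay below sham from 6 h. Its sham libraries measured 753, 704 and 712 CPM, and those at 6 h 468, 623 and 586 CPM, all below sham. The 6 h difference did not pass the test (-0.37 ± 0.15 on the log2 scale, edgeR adjusted p = 0.0765), but it did under library totals (-0.47, edgeR adjusted p = 0.0214), with no low-count filter (0.0461), with only the 6 libraries compared (0.0249), in both limma fits, and without 24 h replicate 1 (0.0317) or 24 h replicate 3 (0.0188). At 24 h Ak1 was at 472, 394 and 279 CPM (-0.92 ± 0.15 on the log2 scale, edgeR adjusted p = 1.55e-04) and at 72 h at 283, 225 and 225 CPM (-1.57 ± 0.16, edgeR adjusted p = 7.49e-08). The 24 h libraries overlapped both the 6 h and the 72 h libraries.

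Among 10 other genes of phosphate transfer, 4 were lower and 1 higher at 24 h, and 8 were lower and 1 higher at 72 h (medians -0.18 and -0.87 on the log2 scale), beside 20.2% of all genes lower and 23.7% higher at 24 h, and 32.2% lower and 34.2% higher at 72 h. Library totals gave 4 lower and 2 higher at 24 h (median 0.01), and 5 lower and 4 higher at 72 h (median -0.29). Slc25a3, the phosphate carrier (-1.49), and Vdac1, a pore of the outer mitochondrial membrane (-1.40), fell by similar amounts at 72 h. Ak4, a mitochondrial adenylate kinase, fell as well (-1.40). Ampd3, which removes the amino group of AMP, was higher at 6 h (0.79 ± 0.12 on the log2 scale, edgeR adjusted p = 1.31e-04). The list had no common direction at 6 h, with 1 higher and 1 lower (median 0.01), beside 16.3% and 12.2% of all genes. At 24 h Ampd3 went against most called genes of the list (0.44 ± 0.12, edgeR adjusted p = 0.00675). It was lower at 72 h (-0.33, edgeR adjusted p = 0.0208), or higher under library totals (0.25). Ak5 was called higher at 72 h, from a mean of 0.0958 to 0.906 CPM, on counts too few in sham for a fold change.

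The 2 aspartate aminotransferases, are measured in blood as AST, and both fell by 72 h. Got1 (ENSMUSG00000025190, chromosome 19, 43499752 to 43524605, minus strand), the cytosolic form, measured 863, 807 and 788 CPM in sham and 942, 1090.5 and 1044 CPM at 6 h. The 6 h libraries lay above every sham library without passing the test (0.32 ± 0.15 on the log2 scale, edgeR adjusted p = 0.122), and the fit with only those 6 libraries called them higher (edgeR adjusted p = 0.0141). At 24 h Got1 was at 797, 598 and 509 CPM and overlapped sham (-0.37 ± 0.15, edgeR adjusted p = 0.0588). That value passed the test without 24 h replicate 1 (-0.55, edgeR adjusted p = 0.00353), without 72 h replicate 1 (0.0343), with no low-count filter (0.0401) and by DESeq2 (adjusted p = 0.0423). From 6 h to 24 h Got1 fell by 0.69 (SE 0.15, edgeR adjusted p = 0.00297), and at 72 h it was at 322, 230.1 and 229.7 CPM (-1.65 ± 0.16, edgeR adjusted p = 4.02e-08).

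Got2 (ENSMUSG00000031672, chromosome 8, 95864134 to 95888547, minus strand), the mitochondrial form, ranged from 812 to 885 CPM in sham and from 785 to 870.1 CPM at 6 h, so these groups overlapped. It measured 679, 533 and 501 CPM at 24 h (-0.55 ± 0.13, edgeR adjusted p = 0.00291) and 282, 194 and 199 CPM at 72 h (-1.90 ± 0.14, edgeR adjusted p = 1.84e-09). The Got1 to Got2 ratio per length was 1.86 ± 0.0171 in sham (SD, n = 3), 2.07 ± 0.109 at 10 min, 2.37 ± 0.164 at 6 h, 1.93 to 2.23 over the mice at 24 h, and 2.20 ± 0.0402 at 72 h. These 4 groups did not overlap sham (two-sided exact permutation p = 0.1 for each, 0.167 adjusted), while the 1 h group, at 2.02 ± 0.154, did (exact p = 0.2). The other 5 genes of the malate-aspartate shuttle, the malate dehydrogenases Mdh1 and Mdh2 and the carriers Slc25a11, Slc25a12 and Slc25a13, were all uncalled up to 6 h and all lower at 24 h (median log2 fold change -0.66, with 20.2% of all genes lower) and at 72 h (-1.65, with 32.2% of all genes lower). They were also 5 of 5 lower at both times under library totals (medians -0.47 and -1.07).

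**Figure D4:**
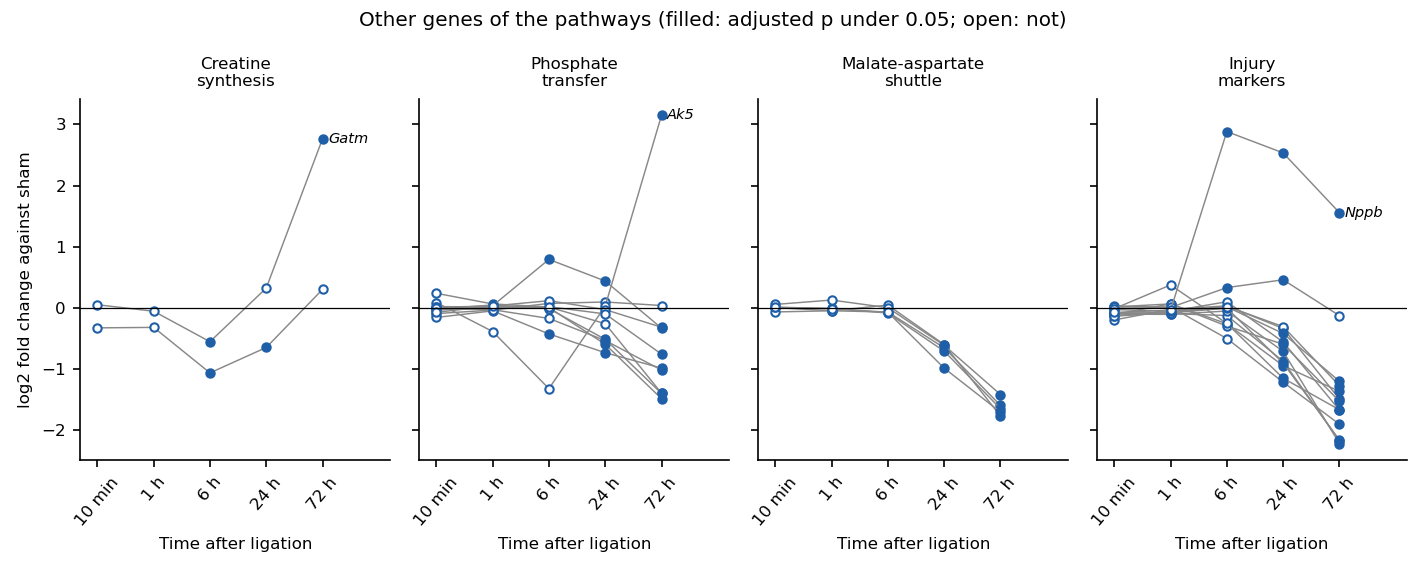
Log2 fold change against sham of the other creatine, phosphate transfer, malate-aspartate shuttle and injury marker genes that were tested; each line is 1 gene and filled points have an edgeR adjusted p under 0.05. The 5 shuttle genes run together from near 0 at 6 h to between -1.77 and -1.42 at 72 h, and Gatm, Ak5 (on few counts) and Nppb end filled above 0; under library totals Ampd3, Slc25a5, Gamt and Ldha are among those also called higher at 72 h.

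A list of 13 genes holds other proteins used as blood markers of heart injury. Of these, 0 were called at 10 min and 1 h, and 2 were higher and 0 lower at 6 h, beside 16.3% of all genes higher and 12.2% lower. At 24 h 9 were lower and 2 higher (20.2% and 23.7% of all genes), and at 72 h 11 were lower and 1 higher (32.2% and 34.2% of all genes, median log2 fold change of the list -1.53). Library totals gave 1 higher and 2 lower at 6 h, 2 higher and 8 lower at 24 h, and 2 higher and 11 lower at 72 h. Cardiac troponin I (Tnni3) was at -0.87 at 24 h and -2.17 at 72 h, and troponin T (Tnnt2) at -0.34 (edgeR adjusted p = 0.068, not called) and -1.49. The heart fatty acid binding protein Fabp3 was at -0.56 and -1.67. Nppb, which encodes the natriuretic peptide BNP, went the other way: it rose from a mean of 229 CPM in sham to 1690.3 CPM at 6 h (2.88 ± 0.35 on the log2 scale, edgeR adjusted p = 4.67e-05), was at 1326 CPM at 24 h and at 673 CPM at 72 h (1.56 ± 0.33, edgeR adjusted p = 7.41e-04). Of the lactate dehydrogenase genes, Ldha was higher at 6 h (0.33, edgeR adjusted p = 0.0183, or 0.22 and edgeR adjusted p = 0.0915 under library totals) and 24 h (0.46, edgeR adjusted p = 0.00128) and near sham at 72 h (-0.13, edgeR adjusted p = 0.260, or 0.46 and called higher under library totals). Ldhb, the form that prevails in heart, fell by 2.17 at 72 h.

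To see whether the 9 genes moved apart from cardiomyocyte markers, each was set against the mean log2 level of 10 such markers (Myh6, Actn2, Ryr2, Ttn, Pln, Myl2, Tnnt2, Tnni3, Mybpc3 and Myl3) in the same library. This ratio does not depend on scaling, and no test was made. Summed, these markers ran from 58480.3 to 64079.9 CPM in sham, 51343 to 64114 CPM at 6 h, 25589 to 38757 CPM at 24 h and 14022 to 19094 CPM at 72 h, and 10 of 10 were called lower at 72 h. At 72 h, Ckm was 0.61 below the mean of the markers on the log2 scale relative to sham (range over the 3 mice -0.77 to -0.40). Against their median it was at -0.54. The range is over mice and does not hold the spread among the markers, which did not fall alike. Of those given above, Tnni3 fell more than Tnnt2 and less than Ckm. Ckmt2 was at -0.23, Mb at -0.21, Slc25a4 at -0.11 and Got2 at -0.08, the last overlapping sham. Against the median of the markers instead of their mean, Slc25a4 was at -0.04 and overlapped sham as well, and Got2 was at -0.02. Got1 was at 0.17 and Ak1 at 0.26, both above every sham library. So 6 of the 9 genes had means between -0.23 and 0.26, while Slc6a8 (1.48, range 1.22 to 1.65) and Ckb (2.85, range 2.69 to 2.99) lay far above them. Slc6a8 itself had a mean of 172 CPM in sham and 134 CPM at 72 h. The measure rises for any mRNA that falls less than the markers. A higher level per cardiomyocyte and mRNA from other cells cannot be told apart by it.

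At 24 h, the relative value of Ckm was -0.29 (range -0.46 to -0.20), but -0.14 with overlap against the median of the markers. That of Slc6a8 was 0.88 (range 0.78 to 1.01), or 1.03 against the median. Got1 (0.40), Slc25a4 (0.20) and Ak1 (-0.16) also lay apart from sham at 24 h. Ckmt2, Ckb, Mb and Got2 overlapped sham against the mean of the markers. At 6 h the summed markers overlapped sham. Got1 was then at 0.48, Slc6a8 at 0.38, Slc25a4 at 0.26, Ckmt2 at 0.23 and Ckb at -0.48, each without overlap with sham. Got2 (0.12), Ckm (0.11) and Mb (0.09) did not overlap sham either, while Ak1 (-0.23) did. How many of all genes separate from sham by this measure was not computed. At 10 min and 1 h, relative values for the 9 genes lay between -0.15 and 0.15.

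**Figure D5:**
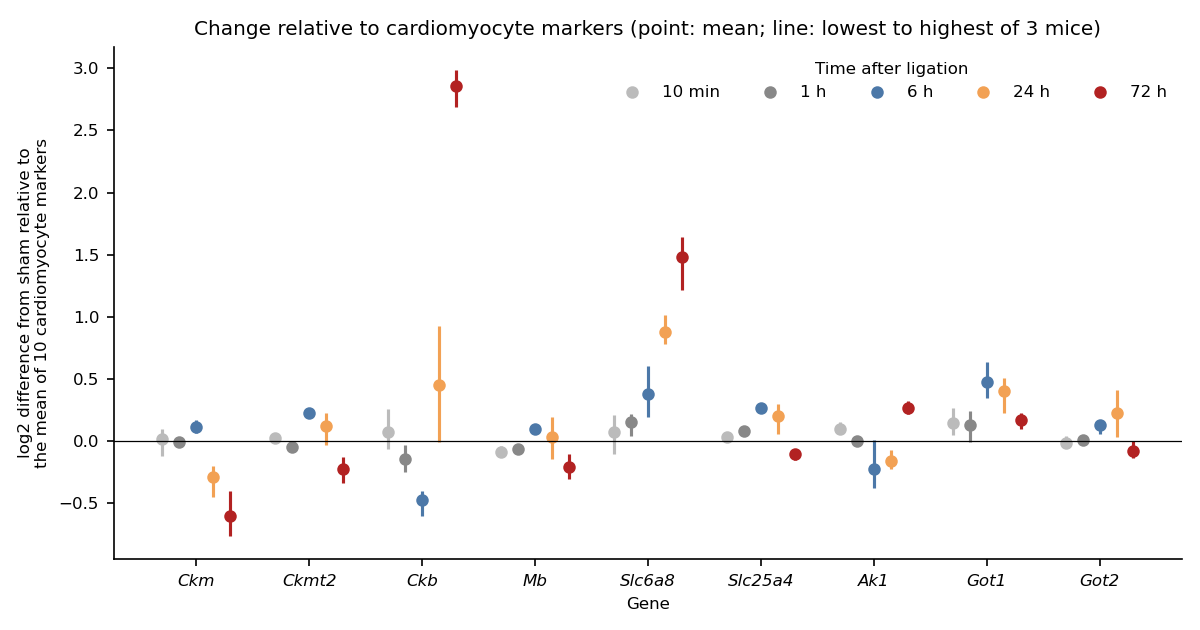
Log2 difference from sham of each gene relative to the mean of 10 cardiomyocyte markers in the same library; points are means of 3 mice and lines run from the lowest to the highest mouse. At 72 h, 7 of the genes lie between -0.61 and 0.26, while Slc6a8 reaches 1.48 and Ckb 2.85.

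Per length, the order of the 9 genes in sham was Mb (9916 ± 187 FPKM, SD, n = 3), Slc25a4 (2558 ± 67.9), Ckmt2 (1276 ± 55.2), Ckm (393 ± 13.3), Got1 (323 ± 15.3), Ak1 (279 ± 10.1), Got2 (174 ± 8.43), Slc6a8 (33.0 ± 0.824) and Ckb (18.03 ± 2.61). At 72 h Mb, Slc25a4 and Ckmt2 were still the top 3, at 2436 ± 571, 673 ± 125 and 309.9 ± 72.5 FPKM. Got1 (103 ± 20.9) and Ak1 (94.2 ± 12.8) had then passed Ckm (74.3 ± 22.6) in mean level, although their spreads overlapped, and Ckb (36.4 ± 3.02) had passed Slc6a8 (25.7 ± 0.0826). With the length of the first-numbered transcript, Ckm was at 927 in sham and 175 at 72 h and stayed above Got1 (398 and 127) and Ak1 (356 and 120.1), so that part of the order rests on the length used.

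Among the 7 genes other than Ckb and Slc6a8, Pearson r of log2 CPM over the 18 libraries ran from 0.891 (Ak1 with Got1) to 0.997 (Ckmt2 with Slc25a4). It was 0.997 between Ckmt2 and Mb, 0.9902 between Ckm and Ckmt2 and 0.984 between Got1 and Got2, given as a description since the libraries share the 6 groups. Slc6a8 had r from 0.628 (with Ak1) to 0.856 (with Got1) with these 7 genes. Ckb ran against them, with r = -0.68 with Ckm and -0.75 with Ckmt2. Among 11721 genes, those most like the members over the 18 libraries were Suclg1 (r = 0.997) and Ldhb (0.996) for Ckm, Mdh2 and Atp5g1 for Ckmt2, and Eci1 and Ndufa9 for Mb (r = 0.997 to 0.998). They were Ndufv1 and Idh3b for Slc25a4, Phyh and Idh3b for Got2, Ank1 and Fndc5 for Ak1, and Echs1 and Pcp4l1 for Got1. The 2 exceptions had lower best matches. Mxra7 (0.950) was among the 2 genes most like Ckb, and Slc6a8 was most like Dennd5a (0.941) and Slmap (0.939).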

How the data were processed

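Poly(A) RNA from the left ventricle of 18 mice was sequenced, 3 mice in each of 6 groups given by the labels. Per the submitters' processing notes, cutadapt 1.18, HISAT2 2.1.0, featureCounts and the mm10 build were used. Whether counting used strand is not given in the sources used here. How exons shared with genes on the other strand affected the counts is therefore not known, also where those genes had few counts. Besides Ckm and Mb, this holds for Ckmt2 (84 bases with 1700119I11Rik) and Got2 (434 bases with Gm45760). The authors deposited whole-number read counts and FPKM for 30583 genes. The deposited FPKM follow from the counts, the library totals and 1 length per gene: those lengths came out whole (within 0.01 bases) for 100% of 10452 well-counted genes (50 or more in each library). In the deposited FPKM, the columns of replicates 2 and 3 at 6 h hold each other's counts. Names and coordinates are those of GENCODE M21 on GRCm38, the same build as mm10, and 0 columns were left unmatched. Promoter windows came from RefSeq, where 8 of the 9 genes had an entry (Slc6a8 had none).

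Counts were fitted in R 4.3.3 with edgeR 4.0.16: filterByExpr (14272 genes removed), TMM, and a robust quasi-likelihood fit of all 18 libraries with 1 mean per group. Contrasts were two-sided with Benjamini-Hochberg adjustment over 16311 genes. The biological coefficient of variation was 0.149. Scripts were tested on simulated data. Alternatives were library totals, RLE, TMM without mitochondrial genes, other low-count filters, only the 6 libraries compared, a replicate block, leaving out each library, DESeq2 1.42.0, and limma 3.58.1 on log2(FPKM + 1) and log2(FPKM + 0.1). Ratios used counts per length, with exact permutation tests. Most alike genes were the 2 with the highest Pearson r on log2 CPM among genes averaging 50 or more counts, leaving out predicted genes; list genes are named where a result turns on them or where they go against most of their list. Tnni3, Tnnt2, Fabp3, Ldhb, Slc25a3, Vdac1 and Ak4 were named as examples after their values were seen. Some genes that the rule names are not reported here.

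The 9 genes and all gene lists were chosen with earlier results of these data known. The labels describe separate mice, so p-values measure the spread between mice of 1 experiment. Counting error was small, with at least 542 counts for each of the 9 genes in every library.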

Additional observations from a re-analysis of the deposited data

Results flagged for a closer look

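Ckb was called below sham at 6 h and above sham at 72 h, and the difference between the 2 times was itself tested: Ckb was 1.66 higher on the log2 scale at 72 h than at 6 h (SE 0.20, edgeR adjusted p = 1.30e-06). The 3 libraries at 6 h were at 32.3 to 34.1 CPM and the 3 at 72 h at 95.6 to 113 CPM. It was the 1 gene of the 9 that passed the test in both directions. Its 6 h call held in 15 of the 18 fits that left out 1 library and was lost with no low-count filter. The 2 times were compared here because their calls had opposite directions, so the p-value of their difference is not separate from those calls. The groups have 3 libraries each, too few for a test of single outlying samples.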

How the results depend on the processing

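The count of genes called against sham at 6 h (1, Ckb) was 2 under library totals and in both limma fits, 3 with only the 6 libraries compared, and 0 to 2 when 1 library was left out. From 1 h to 6 h the count of 0 became 1 under library totals and with only the 6 libraries compared, and 0 to 2 when 1 library was left out. From 6 h to 24 h the count of 7 fell to 1 with only the 6 libraries compared, a fit with fewer samples, and was 6 to 8 when 1 library was left out. The counts at the other times stayed within 1.5 times their value in every alternative run. Slc6a8 at 72 h turned from -0.36 to 0.23 under library totals, 0.22 by limma on log2(FPKM + 1) and 0.23 by limma on log2(FPKM + 0.1). Relative to cardiomyocyte markers, Ckmt2 at 10 min turned from 0.0224 to -0.00919 without 4 of the markers. Of the other alternative values of this kind, 15 moved by more than the spread between replicates and 74 did not; at 24 h, separation from sham was lost for Ckm (-0.14) and Ak1 (-0.02) against the median of the markers and gained for Ckmt2 (0.27) and Got2 (0.37). For the ratios, 160 alternative values stayed within the spread between replicates, but they could not have done otherwise. Deposited FPKM and the replicate block return the same group differences. Leaving out 1 of 3 libraries cannot move a group mean beyond this spread. The count therefore says nothing on how stable the ratios are.

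Replicate numbers are shared by the groups, but same-numbered libraries showed little shared deviation (mean r = 0.0156, against -0.00750 for different numbers). Of 45 same-numbered pairs, 4 had r over 0.1. Of 18 libraries, 9 correlated best with their own number, a count for which no chance level was computed. With the replicate block, members called against sham were 0, 0, 1, 7 and 9 in time order, Got1 at 24 h being the added one (log2 fold change -0.38, edgeR adjusted p = 0.0284), and 4540 genes were called at 6 h in place of 4639. Paired ratio differences have 3 pairs, where the exact sign-flip test cannot go below p = 0.25. Depth does not limit the 9 genes, whereas Ckmt1 and Ak5 are near the floor of 3 counts.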
